A study of Mus musculus with 4 samples.

Results

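Expression of the genes of Polycomb repressive complex 2 (PRC2) was compared between control and *Dnmt1* KO cells sorted from the mouse basal telencephalon. The members were chosen by gene name and comprise *Ezh1*, *Ezh2*, *Eed*, *Suz12*, *Jarid2*, *Mtf2*, *Phf1*, *Phf19*, *Rbbp4* and *Rbbp7*, which are 10 of the 56883 genes in the table. All 10 passed the filter for testing, which asks that the mean over the 4 libraries reach 10 normalized counts and was met by 14323 genes in all. In these cells 3 of the 10 genes fell after *Dnmt1* deletion, namely *Eed*, *Rbbp7* and *Ezh2*, and none rose, where 8.99% of all tested genes were called lower and 8.3% higher. The falls were small, from 13.6% to 30.1% of the control level, and each was lost in some alternative fits.

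Both genotypes were on a C57BL/6J background and carried *Sst-Cre* and a Cre-dependent tdTomato reporter, and cells were sorted by tdTomato fluorescence at E14.5. Control cells came from *Sst-Cre/tdTomato* embryos, and *Dnmt1* KO cells from *Sst-Cre/tdTomato/Dnmt1 loxP2* embryos, in which Cre deletes a floxed part of *Dnmt1*, the gene of a DNA methyltransferase. *Sst-Cre* acts in postmitotic cells that express somatostatin (*Sst*). Each genotype had 2 libraries of total RNA, and each library was made from cells pooled over several embryos whose sex was not distinguished. The p-values measure the spread between pools and not between embryos.

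PRC2 places methyl groups on lysine 27 of histone H3 (H3K27), and H3K27me3 marks genes that are kept silent, among them the *Hox* clusters in the forebrain. EZH2 or its paralog EZH1 is the catalytic subunit, EED binds H3K27me3 and stimulates the enzyme, SUZ12 holds the core together, and RBBP4 or RBBP7 binds histones. PHF1, MTF2 and PHF19 are the Polycomb-like proteins that bring PRC2 to CpG-rich DNA, and JARID2 belongs to the alternative form of the complex. In the developing brain, EZH2 is known as the form of dividing progenitors, where E2F factors drive its transcription, and EZH1 as the form that persists in postmitotic neurons.

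Since E2F control is textbook knowledge for *Ezh2*, the promoters of the members were searched for E2F words. RefSeq promoter windows from 250 bases before to 50 bases after the transcription start (build GRCm38.p6) were found for all 10 members, in 12 entries. The words TTTCCCGC, TTTCGCGC, TTTGCCGC and TTTGGCGC were searched on both strands, and they occurred in 2.27% of 32841 promoters of the same length. Each word contains a CpG, and this share was not matched for CpG content. Among the members, *Ezh2*, *Suz12* and *Phf19* held a match, and the other 7 held none of these words in their windows. The windows of these 3 genes and of *Eed* and *Rbbp7*, the other genes that fell, are shown, with the E2F match in capitals and all other bases in lower case.
Ezh2, chr6:47594981-47595280, minus strand: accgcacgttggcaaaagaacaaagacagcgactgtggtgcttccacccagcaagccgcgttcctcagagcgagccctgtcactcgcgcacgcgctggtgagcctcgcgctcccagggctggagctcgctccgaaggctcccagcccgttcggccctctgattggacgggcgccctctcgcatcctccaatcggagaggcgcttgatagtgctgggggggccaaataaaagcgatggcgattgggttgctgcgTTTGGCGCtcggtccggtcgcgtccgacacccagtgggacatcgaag
Suz12, chr11:79992856-79993155, plus strand: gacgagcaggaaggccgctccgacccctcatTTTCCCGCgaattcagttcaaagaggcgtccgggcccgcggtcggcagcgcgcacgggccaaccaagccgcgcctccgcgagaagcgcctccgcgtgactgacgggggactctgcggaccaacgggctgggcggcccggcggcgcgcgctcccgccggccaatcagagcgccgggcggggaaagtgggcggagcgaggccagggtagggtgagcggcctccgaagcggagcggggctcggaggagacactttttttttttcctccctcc
Phf19, chr2:34913927-34914226, minus strand: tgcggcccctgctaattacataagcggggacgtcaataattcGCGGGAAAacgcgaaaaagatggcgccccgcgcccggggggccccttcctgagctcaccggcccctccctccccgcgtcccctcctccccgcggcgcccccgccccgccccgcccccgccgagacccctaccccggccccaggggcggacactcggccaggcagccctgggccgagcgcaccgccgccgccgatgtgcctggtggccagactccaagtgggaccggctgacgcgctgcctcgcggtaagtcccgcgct
Eed, chr7:89980927-89981226, minus strand: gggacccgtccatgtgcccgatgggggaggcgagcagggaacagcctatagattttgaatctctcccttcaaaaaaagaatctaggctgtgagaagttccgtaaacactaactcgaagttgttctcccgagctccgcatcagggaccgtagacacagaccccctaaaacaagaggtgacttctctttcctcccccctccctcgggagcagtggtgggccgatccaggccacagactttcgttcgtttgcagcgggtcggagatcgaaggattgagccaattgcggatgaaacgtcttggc
Rbbp7, chrX:162760122-162760421, plus strand: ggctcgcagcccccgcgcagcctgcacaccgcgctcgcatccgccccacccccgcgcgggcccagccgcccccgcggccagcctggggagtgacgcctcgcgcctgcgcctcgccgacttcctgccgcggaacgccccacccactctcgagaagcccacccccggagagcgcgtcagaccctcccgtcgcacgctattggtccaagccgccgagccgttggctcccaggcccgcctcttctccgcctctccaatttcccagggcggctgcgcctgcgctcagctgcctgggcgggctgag

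In *Ezh2* the match begins at base 4, with the transcription start counted as base 1. In *Suz12* and *Phf19* it begins 219 and 208 bases upstream of the start, and in *Phf19* it lies on the other strand. Of these 3 genes with the word, 1 fell, and the other genes that fell, *Eed* and *Rbbp7*, have windows without it. The search covered only exact letters in these windows, and E2F binding or control of any member was not tested. The letters CCAAT were found for 7 of the 10 members and in 37.4% of all promoters, both strands counted. The letters GGGCGG (the GC box) were found for 7 members and in 35.7% of all promoters. A member counted if any of its entries held the letters, and *Mtf2* held CCAAT only in an alternative promoter. The shares are per promoter entry, and neither was matched for CpG content. The 5 windows shown hold 31, 41, 38, 17 and 38 CpG sites in the order given, against a median of 7 over all promoters. Over the 12 entries the number of CpG sites ran from 2 to 41, with the lowest in an alternative *Mtf2* promoter.

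The 4 libraries held between 6970247 and 8376711 reads, recovered from the normalized counts and possibly rounded estimates, and none stood apart. Libraries of the same genotype differed by a chi-square of 2.31 or 2.71 per degree of freedom, and libraries of different genotypes by 9.35 to 9.64. *Dnmt1* itself was counted at 2238 and 2341 in control and at 2164 and 2210 in *Dnmt1* KO libraries, but a whole-gene count does not separate transcripts with the floxed part from those without. Limma, fitted on log2(normalized count + 1) over all 14323 genes with Benjamini-Hochberg adjustment, called 17.3% of genes at an adjusted p below 0.05, with 8.99% lower and 8.3% higher in *Dnmt1* KO. Adjusted p-values are from this limma fit unless another tool is named, and log2FC is the log2 fold change of *Dnmt1* KO over control in it. Against this background, 3 of the 10 members were called lower and 0 higher. No further member passed at an unadjusted p below 0.05 in limma, and edgeR and limma-voom on the recovered reads also called 3 lower and 0 higher, where edgeR called 9.09% of all genes lower. DESeq2 called none of the 10, where it called 4.8% of all genes lower, although 3 members had an unadjusted p below 0.05 there. With 1 library left out, limma called 0 members without control 2, 1 without control 1 or *Dnmt1* KO 1, and 2 without *Dnmt1* KO 2. The normalized counts of the genotypes did not overlap for 6 of the 10 members, 5 lower and 1 higher, which is close to the 57.4% of all tested genes without overlap.

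**Figure D1:**
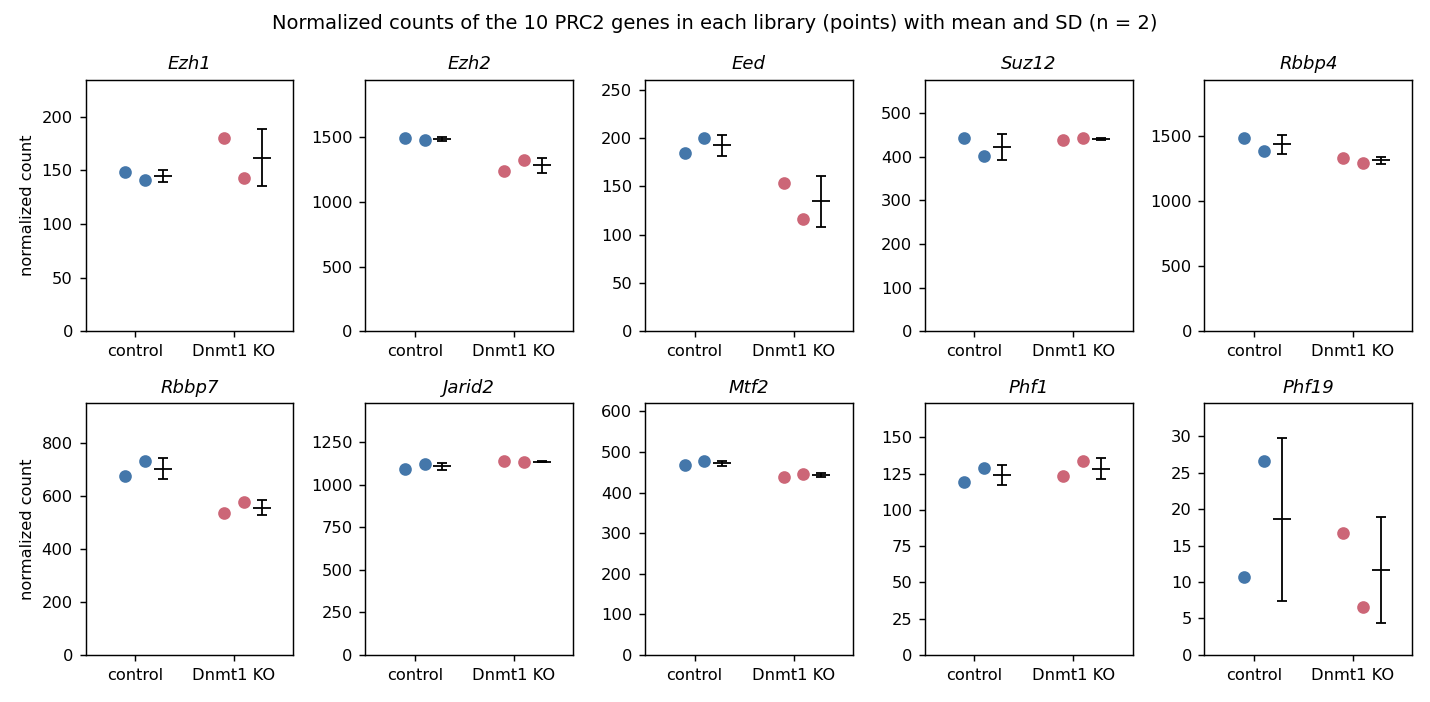
Normalized counts of the 10 PRC2 genes (y axis, from 0, scaled per gene) in the 2 control libraries (blue points) and the 2 Dnmt1 KO libraries (red points), with the mean and SD of each genotype (n = 2) beside them. Ezh2, Eed, Rbbp7, Rbbp4 and Mtf2 lie lower in both Dnmt1 KO libraries than in both control libraries, Jarid2 lies slightly higher, and the genotypes of the other 4 genes overlap.

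Of the catalytic subunits, *Ezh2* (ENSMUSG00000029687, GRCm39 chr6:47507073-47572331, minus strand) was counted at 1497 and 1476 in control and at 1243 and 1326 in *Dnmt1* KO libraries. Both *Dnmt1* KO libraries lay below both control libraries. The means were 1487 ± 14.8 and 1285 ± 59.1 (SD, n = 2 each), so the normalized count fell by 13.6%, with a log2FC of -0.21 (standard error 0.063, adjusted p = 0.0303). *Ezh2* lost the call in DESeq2 (adjusted p = 0.112), in limma on genes with any read (0.0606) and whenever control 1, control 2 or *Dnmt1* KO 1 was left out (adjusted p = 0.106, 0.0787 and 0.216). Its direction was the same in all 17 alternative fits, which the lack of overlap fixed in advance for those that left out a library.

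*Ezh1* (ENSMUSG00000006920, chr11:101081934-101117315, minus strand) was counted at 148.5 and 140.9 in control and at 180.5 and 143.1 in *Dnmt1* KO libraries. Only *Dnmt1* KO 1 stood above the rest, while *Dnmt1* KO 2 lay between the control libraries. The log2FC of 0.15 (standard error 0.155) did not pass (adjusted p = 0.565, with a 95% interval of -0.18 to 0.48), and without *Dnmt1* KO 1 it was -0.015. Exons of *Ezh1* share 814 of 9250 exon bases with *Cntnap1* on the other strand, a gene with a mean normalized count of 10.9 here. In the *Ezh1* transcript with the longest coding sequence, 17.9% of windows of 75 bases, the read length, are shared with it. The share of *Ezh1* reads that could belong to *Cntnap1* is uncertain.

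Per length, *Ezh1* stood at 7.23% of *Ezh2* in control and at 9.29% in *Dnmt1* KO cells, measured as normalized count per kilobase of the transcript with the longest coding sequence. The log2 ratio of their normalized counts was -3.32 and -3.38 in control and -2.78 and -3.20 in *Dnmt1* KO libraries. The ratio was thus higher in both *Dnmt1* KO libraries, by 0.36 on the log2 scale, and by 0.15 to 0.58 when 1 library was left out. The exact two-sided permutation test gave p = 0.333, the smallest that 2 libraries against 2 allow.

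Of the core subunits without catalytic activity, *Eed* (ENSMUSG00000030619, chr7:89603862-89630217, minus strand) fell most among the called members. It was counted at 184.3 and 200.1 in control and at 152.9 and 115.8 in *Dnmt1* KO libraries, with no overlap but a wide gap between the *Dnmt1* KO libraries. From 192.2 ± 11.1 to 134.4 ± 26.2 (SD, n = 2 each) it fell by 30.1%, with a log2FC of -0.53 (standard error 0.158, adjusted p = 0.0317). Its exons share 355 of 3854 bases with *E230029C05Rik* on the other strand, which had a mean normalized count of 16.2. The *Eed* transcript used shares 0% of its windows of 75 bases. *Eed* rests on few reads, between 106 and 206 per library. The call was lost in DESeq2 (adjusted p = 0.180) and with quantile normalization (0.0635). It was also lost after removal of the trend over transcript length and GC content (0.0627) and in limma on genes with any read (0.0559). Leaving out control 1, control 2 or *Dnmt1* KO 2 also ended it (adjusted p = 0.0827, 0.179 and 0.244), and without *Dnmt1* KO 2 the log2FC was -0.33.

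*Suz12* (ENSMUSG00000017548, chr11:79883891-79925421, plus strand), which is needed for the stability of the complex, was counted at 443.0 and 401.2 in control and at 437.9 and 441.4 in *Dnmt1* KO libraries. Control 1 was the highest and control 2 the lowest of the 4, so the genotypes overlapped. The log2FC was 0.061 with a 95% interval of -0.14 to 0.26 (adjusted p = 0.721), while both leaving out control 2 and removing the length and GC trend turned it negative. A fall of the size estimated for *Eed* lies outside this interval.

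Of the histone-binding subunits, *Rbbp7* (ENSMUSG00000031353, chrX:161543356-161562099, plus strand) fell and *Rbbp4* did not pass. *Rbbp7* was counted at 676.5 and 732.0 in control and at 536.6 and 578.0 in *Dnmt1* KO libraries, well apart. Its mean fell by 20.9%, from 704.2 ± 39.2 to 557.3 ± 29.3 (SD, n = 2 each), with a log2FC of -0.34 (standard error 0.084, adjusted p = 0.0111). The call was lost in DESeq2 by a small margin (adjusted p = 0.0556) and without control 2 or *Dnmt1* KO 1 (adjusted p = 0.0921 and 0.0633). Sequence windows of 75 bases, the read length, are shared with *Gm6382*, which had 1 read in all, and with the antisense gene *Txlng*. Over both partners 9.41% of the windows of the *Rbbp7* transcript were shared, and the part of its count that this affects is not known.

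*Rbbp4* (ENSMUSG00000057236, chr4:129184867-129229170, minus strand), the close paralog that also serves other histone complexes, was counted at 1485 and 1384 in control and at 1333 and 1295 in *Dnmt1* KO libraries. The genotypes did not overlap, yet the log2FC of -0.13 (standard error 0.064) did not pass (adjusted p = 0.200). The *Rbbp4* transcript shares 29.1% of its windows of 75 bases with *Sync* on the other strand. *Sync* had a mean normalized count of 0.97. The log2 ratio of *Rbbp4* to *Rbbp7* was 1.13 and 0.92 in control and 1.31 and 1.16 in *Dnmt1* KO libraries, a difference of 0.21 (exact two-sided permutation p = 0.333, the smallest possible). Per length, *Rbbp4* stood at 239% of *Rbbp7* in control and at 277% in *Dnmt1* KO cells.

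**Figure D2:**
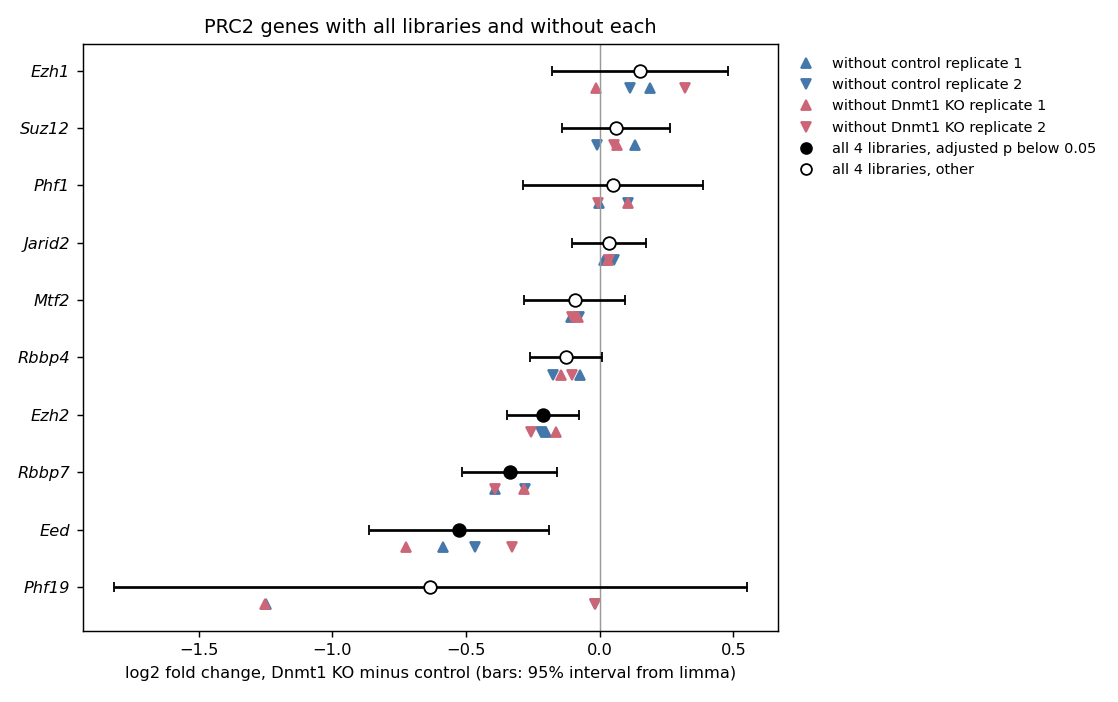
Log2 fold change of each PRC2 gene (x axis, Dnmt1 KO minus control) with all 4 libraries (circles, filled where limma's adjusted p is below 0.05, bars giving the 95% interval) and with 1 library left out (triangles below each circle). Ezh2, Rbbp7 and Eed are the filled circles, at -0.21, -0.34 and -0.53, and Phf19 has by far the widest interval.

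None of the accessory members that recruit or tune PRC2 passed the test. *Jarid2* (ENSMUSG00000038518, chr13:44882950-45075119, plus strand), which helps to bring PRC2 to its targets and lacks demethylase activity, was counted at 1095 and 1124 in control and at 1137 and 1133 in *Dnmt1* KO libraries. The *Dnmt1* KO libraries lay just above the control libraries, and the log2FC of 0.033 had a narrow 95% interval of -0.11 to 0.17 (adjusted p = 0.785). With quantile normalization its sign was negative, at -0.022. *Jarid2* shares 1293 of 10768 exon bases with *Dtnbp1* on the other strand, which had a mean normalized count of 213.6. The *Jarid2* transcript shares 18.6% of its windows of 75 bases with *Dtnbp1*.

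*Mtf2* (ENSMUSG00000029267, chr5:108213540-108256877, plus strand), a Polycomb-like protein that binds unmethylated CpG-rich DNA, was counted at 467.1 and 476.8 in control and at 438.9 and 445.8 in *Dnmt1* KO libraries. Both *Dnmt1* KO libraries were lower, by a log2FC of -0.093 (standard error 0.089, adjusted p = 0.531). Its transcript has the lowest GC content of the members, 38.2%, and once the length and GC trend was removed, its log2FC was -0.37 and it was called (adjusted p = 0.0103). In that fit 8.8% of all genes were called lower, and *Ezh2*, *Rbbp7* and *Mtf2* were the members called. Whether *Mtf2* fell thus depends on this step. The *Mtf2* transcript shares 8.38% of its windows of 75 bases with *Tmed5* and *Gm73347* on the other strand. *Tmed5* had a mean normalized count of 73.1.

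*Phf1* (ENSMUSG00000024193, chr17:27152002-27156892, plus strand), a further Polycomb-like gene, was counted at 119.0 and 128.6 in control and at 123.3 and 133.3 in *Dnmt1* KO libraries, which overlap. Its log2FC was 0.051 (standard error 0.158, adjusted p = 0.870), and it turned negative, at -0.005, when control 1 or *Dnmt1* KO 2 was left out. It shares 1397 of its 3615 exon bases with *Cuta* on the other strand, which had a mean normalized count of 119.6. The *Phf1* transcript shares 10.5% of its windows of 75 bases with *Cuta* and *Gm41555* on the other strand, so this level is uncertain. *Phf19* (ENSMUSG00000026873, chr2:34783764-34805063, minus strand), the third of the group and known from stem and tumor cells, had only 12 and 26 reads in control and 17 and 6 in *Dnmt1* KO libraries. Its log2FC of -0.63 had a 95% interval of -1.82 to 0.55 (adjusted p = 0.490), which leaves room for both a large fall and a moderate rise. The log2 ratios to *Mtf2* differed by 0.14 for *Phf1*, 0.13 for *Jarid2* and -0.54 for *Phf19* (exact two-sided permutation p = 0.333, 0.333 and 0.667, with 0.333 the smallest possible and 5 ratios compared in all, so no ratio could pass).

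The members covered a wide range of levels. Per kilobase of transcript, the mean normalized count over the 4 libraries was 675 for *Rbbp4*, 446 for *Ezh2*, 264 for *Rbbp7*, 180 for *Jarid2*, 113 for *Mtf2*, 109 for *Eed*, 88.3 for *Suz12*, 47.6 for *Phf1*, 36.4 for *Ezh1* and 4.04 for *Phf19*. *Rbbp4* and *Ezh2* lay above 96.4% and 93.7% of the tested protein-coding genes per length, and *Phf19* above 3.56%. The order of neighbours was the same in every library except for *Mtf2* over *Eed*, which held in 2 of the 4, and *Eed* over *Suz12*, which held in 3. *Mtf2* stood above *Suz12* in all 4 libraries with separate ranges, while *Eed* cannot be placed against either beyond its spread. *Eed* stood at 127.9 ± 7.41 per kilobase in control and at 89.4 ± 17.4 in *Dnmt1* KO cells (SD, n = 2 each). At the lengths used, this moves *Eed* from above *Mtf2* and *Suz12* to a level that overlaps *Suz12*. These places of *Eed* depend on the transcript used for its length, which had 1503 bases, 1500 of them coding. The transcripts used had 4881 bases with 2223 coding for *Suz12* and 4060 with 1779 for *Mtf2*. A longer *Eed* transcript would lower its level per kilobase, and other lengths were not tried.

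**Figure D3:**
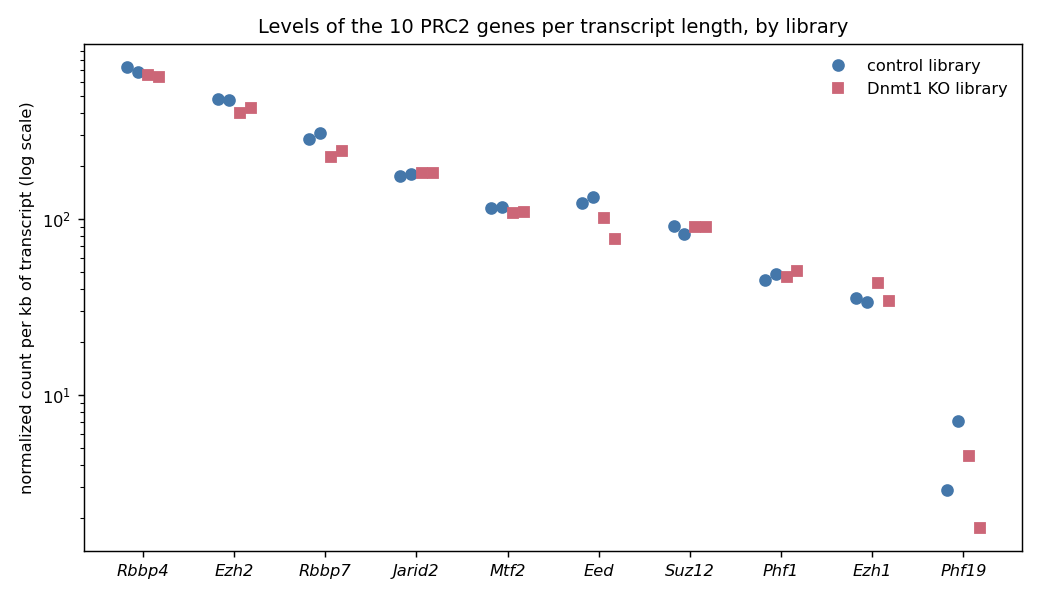
Normalized count per kilobase of transcript (y axis, log scale) for the 10 PRC2 genes in the 2 control (circles) and 2 Dnmt1 KO libraries (squares), ordered by the mean over the libraries. Rbbp4 is highest and Phf19 lowest, and at the transcript lengths used only Eed exchanges places between libraries, with Mtf2 and with Suz12.

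The protein-coding genes closest to *Ezh2* in their pattern over the 4 libraries, among 3055 that reached a mean of 500 normalized counts, were *Kif26a*, *Eif3k* and *H2bc27*. Their distances from *Ezh2*, taken over centred log2 values, were 0.013, 0.016 and 0.020, and their log2FCs were -0.21, -0.21 and -0.22. The closest to *Ezh1* were *Zfand5*, *Srrm3* and *Rhob*, at distances of 0.043, 0.055 and 0.070 and with log2FCs of 0.14, 0.10 and 0.20. With 4 libraries, many genes share such a pattern.

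Of 5 further accessory genes of PRC2, 4 could be tested and 0 passed limma's adjustment, with 1 (*Lcor*) at an unadjusted p below 0.05 and 0 called by edgeR or DESeq2. *Lcor*, whose locus also encodes a protein of the PALI family that binds PRC2, had a log2FC of 0.17 (adjusted p = 0.104), *Aebp2*, a partner of JARID2 in the complex, 0.11 (0.648), *Lcorl* -0.010 (0.963) and *Epop* -0.012 (0.982). *Ezhip*, which encodes an inhibitor of PRC2, had reads but a mean below 10. With the length and GC trend removed, *Lcor* was called higher and *Lcorl* lower (log2FCs of 0.21 and -0.41). The median log2FC of the 4 genes was 0.050, against -0.11 for the 10 members and -0.0033 for all genes tested.

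H3K27 methylation is removed by KDM6A and KDM6B, and the mark that PRC1 places on histone H2A is removed by BAP1 with its ASXL and FOXK partners. Of these 8 genes, 3 rose and 1 fell, which is 4 of 8 against 17.3% of all genes, and their median log2FC was 0.19. *Kdm6b*, the inducible H3K27 demethylase, was counted at 2319 and 2348 in control and at 2733 and 2784 in *Dnmt1* KO libraries, a log2FC of 0.24 (adjusted p = 0.00418), and it was called in all 4 fits that left out a library and in DESeq2. *Asxl3* and *Asxl2* rose by 0.35 and 0.40 on the log2 scale (adjusted p = 0.00686 and 0.0172), the first called and the second not called in DESeq2. *Foxk1* was counted at 338.3 and 344.0 in control and at 200.2 and 203.2 in *Dnmt1* KO libraries, a log2FC of -0.76, and was also called in all 4 such fits. *Kdm6a*, the X-linked demethylase, reached 0.21 in log2FC (adjusted p = 0.247), and *Bap1*, *Asxl1* and *Foxk2* had 0.17 (0.115), 0.15 (0.191) and 0.014 (0.921). Without control 1 or *Dnmt1* KO 2, limma called 2 of the 8.

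PRC1, the complex that reads H3K27me3 through its CBX proteins, changed in few genes. Of 25 PRC1 genes, 2 rose and 0 fell, against 17.3% called among all genes, with a median log2FC of 0.052. At an unadjusted p below 0.05, limma had 4 higher and 1 lower, and edgeR called 2 and DESeq2 1. *Cbx6* was counted at 404.5 and 445.1 in control and at 511.9 and 521.2 in *Dnmt1* KO libraries, a log2FC of 0.28 (adjusted p = 0.0439). *Cbx6* was not called in DESeq2 (adjusted p = 0.210), and limma called 0 PRC1 genes without control 1 and 1 without *Dnmt1* KO 2.

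RBBP4 and RBBP7 also serve the NuRD and SIN3 deacetylase complexes, the chromatin assembly factor CAF-1, the acetyltransferase HAT1, the NURF remodeler and the MuvB core. Of 26 genes of these complexes, 7 fell and 3 rose, or 10 of 26 against 17.3% of all genes, with a median log2FC of -0.054. *Chaf1a*, the large subunit of CAF-1, which loads histones onto newly copied DNA, was counted at 274.7 and 310.4 in control and at 169.7 and 202.1 in *Dnmt1* KO libraries (log2FC -0.65, adjusted p = 0.00263). *Hat1* fell by 0.53, *Mbd3* by 0.35 and *Mta1* by 0.27 on the log2 scale (adjusted p = 0.00991, 0.0106 and 0.0139). The remodelers *Chd3* and *Chd5*, which can serve in NuRD, rose by 0.24 and 0.26, and *Bptf* of NURF by 0.18 (adjusted p = 0.000646, 0.00602 and 0.0366). *Chaf1a* and *Chd3* were called in all 4 fits that left out a library, while the count of 10 became 6 without control 1, 4 without control 2 and 5 in DESeq2.

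Genes that PRC2 is known to keep silent were near the detection limit in both genotypes. Of 39 *Hox* genes, 14 had no read in any library, 20 had between 1 and 10 reads over all libraries and 5 had more. All *Hox* genes together had 91 and 68 reads in control and 83 and 47 in *Dnmt1* KO libraries. With *Cdkn2a* and *Cdkn2b*, which had 3 and 4 reads over all libraries, 2 of 41 listed targets could be tested. *Hoxc12* had 28 and 20 reads in control and 34 and 21 in *Dnmt1* KO libraries, and *Hoxc9* had 27 and 20 and then 22 and 8. Neither was called, with log2FCs of 0.28 and -0.64 (adjusted p = 0.648 and 0.386), and 0 of the 2 had an unadjusted p below 0.05 in limma, edgeR or DESeq2. A general rise of *Hox* expression was not seen, but smaller changes of single genes could not be detected at this depth.

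**Figure D4:**
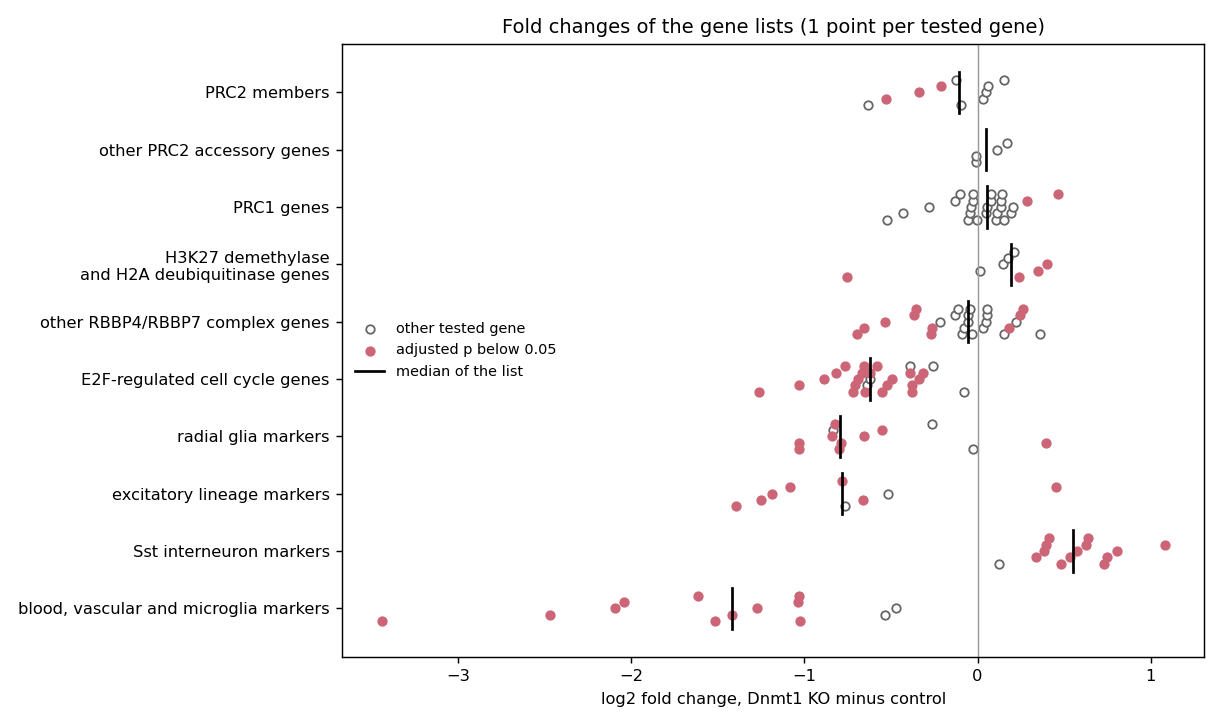
Log2 fold change (x axis, Dnmt1 KO minus control) of each tested gene in 10 lists, red where limma's adjusted p is below 0.05 and open otherwise, with a black bar at the median of the list. The PRC2 members have a median of -0.11, the E2F-regulated cell cycle genes of -0.62 and the Sst interneuron markers of 0.55.

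Markers of other cells and states moved with genotype beside the PRC2 genes, and they are given as measured. In bulk RNA, fewer cells of a type and less RNA per cell cannot be told apart. Over all tested genes, 8.99% were called lower and 8.3% higher. Of 26 E2F-regulated cell cycle genes 21 fell, with a median of -0.62. Their summed normalized count was 11226 to 11267 in control and 7787 to 7939 in *Dnmt1* KO libraries, and none was at 0. *Mki67*, *Top2a*, *Rrm2* and *Mcm3* fell by 0.50, 0.52, 0.69 and 0.71 on the log2 scale, more than the 0.21 of *Ezh2*. Of 12 radial glia markers 8 fell and *Sox2* rose, and their sum was 13037 to 13053 in control and 8180 to 8355 in *Dnmt1* KO libraries. Of 9 genes listed as excitatory lineage markers 6 fell and *Bcl11b* rose, with a median of -0.78. Whether each listed gene, *Bcl11b* included, marks that lineage in the basal telencephalon was not tested. Their sums of 6320 to 6340 and 6005 to 6225 include *Bcl11b*, the only one that rose, by 0.45, beside *Neurog2* at -1.40 and *Eomes* at -1.19. Of 13 tested genes in a list of blood, vascular and microglia markers that also held *Olig2* and *Pdgfra*, 11 fell. *Olig2* and *Pdgfra* were the 2 not called, with log2FCs of -0.53 and -0.47 (adjusted p = 0.161 and 0.354). The 16 listed genes had sums of 2689 to 2905 in control and 794.0 to 826.0 in *Dnmt1* KO libraries, none of them at 0 in all libraries. Of 14 markers of *Sst* interneurons 13 rose, with sums of 27095 to 27241 and 41173 to 41678, and the *Sst* gene also drives the Cre in both genotypes. The part of these shifts in the lower *Ezh2*, *Eed* and *Rbbp7* counts was not tested.

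*Rbbp7* and *Kdm6a* lie on the X chromosome, and the pools differed in a sex-linked gene. *Xist*, expressed in female cells, was counted at 1402 and 1360 in control and at 3428 and 3311 in *Dnmt1* KO libraries (log2FC 1.29). The Y-linked genes *Ddx3y*, *Uty*, *Eif2s3y* and *Kdm5d* were not called, with log2FCs of -0.31, -0.27, -0.19 and -0.095 (adjusted p = 0.229, 0.365, 0.561 and 0.756). With the length and GC trend removed, *Ddx3y* and *Uty* were called lower, at -0.60 and -0.73 (adjusted p = 0.0229 and 0.0149). The part of *Xist* or of the sex of the pooled embryos in the *Rbbp7* and *Kdm6a* values was not tested.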

How the data were processed

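Total RNA from FAC-sorted E14.5 cells was sequenced by the authors with a stranded, rRNA-depleting kit as paired-end reads of 75 bp, trimmed with Trim Galore, aligned to GRCm39 with STAR and quantified with Salmon. The deposited signal is a count per gene and library normalized by the authors with DESeq2 1.32.0 (version per the submitters' processing notes). Whole reads were recovered by dividing each value by its library's smallest value, and all 89965 values above 0 (100%) came out whole to within 0.0001 of a read. Salmon estimates counts, and whether these were rounded before normalization is not given in the sources used here, so the recovered reads may be rounded estimates. The test was limma 3.58.1 (R 4.3.3) on log2(normalized count + 1), for genes whose mean reached 10, with a trend of the prior variance, genotype as the only term, Benjamini-Hochberg adjustment over all 14323 genes and calls below 0.05. Groups and replicate numbers follow the sample labels.

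Alternatives were pseudocounts of 0.5 and 10, a mean of at least 1 or 50 and no filter, quantile normalization, TMM rescaling, limma with no variance trend, count tools on the recovered reads (edgeR 4.0.16, DESeq2 1.42.0, limma-voom), a correction for transcript length and GC content (spline with 5 degrees of freedom), a replicate block, and each library left out. Lengths and overlaps came from the GENCODE annotation of GRCm39. Whether counting used the strand is not given in the sources used here, so genes overlapping on opposite strands are uncertain. Paralog ratios were tested by exact permutation in Python 3.11.15 with scipy 1.17.1. Steps were tested on simulated data. The members and lists were chosen with earlier results of these data known, so no list is independent evidence. Named are all members, all genes of lists with at most 8 tested genes, otherwise called genes with the 4 smallest adjusted p per direction and every gene of a count of 5 or fewer (marker lists mostly as counts and sums), and the 3 genes closest to *Ezh1* and to *Ezh2*. *Dnmt1*, overlapping genes and *Gm6382* were named for checks. A gene that falls under this rule is not reported here.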

Additional observations from a re-analysis of the deposited data

How the results depend on the processing

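Of 17 alternative fits, the count of 3 called PRC2 genes moved to 0 in limma without the variance trend and in DESeq2 and to 1 without a filter on low values, and it ranged from 0 to 2 when 1 library was left out. No member was called in all 4 of those fits, whereas 998 genes were. Over all genes, 2476 were called, 0 without the variance trend (3339 at an unadjusted p below 0.05), 1327 with DESeq2 and 1525 to 2205 with 1 library left out, lowest without control 2. Without the variance trend 0 genes of any list were called. PRC1 genes called numbered 1 with a mean of at least 1, with no filter, with quantile normalization and with DESeq2, and 0 to 2 with 1 library left out, with 0 without control 1. Demethylase and deubiquitinase genes called ranged from 2 to 4 and RBBP4/RBBP7 complex genes from 4 to 8 with 1 library left out, lowest for the latter without control 2, and DESeq2 called 5 of the latter. Quantile normalization called 2 PRC2 genes, without *Eed*. Removal of the length and GC trend gave 2 other accessory genes called instead of 0. It left 3 PRC2 genes called, with *Mtf2* in place of *Eed*.

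With 1 library left out, log2 fold changes ran from -0.015 to 0.32 for *Ezh1*, from -0.011 to 0.13 for *Suz12* and from -0.0051 to 0.11 for *Phf1*. Signs reversed for *Ezh1* without *Dnmt1* KO 1 (-0.015), *Suz12* without control 2 (-0.011) and with the length and GC trend removed (-0.051), *Jarid2* with quantile normalization (-0.022), *Phf1* without control 1 (-0.0048) or *Dnmt1* KO 2 (-0.0051), and the *Phf19* to *Mtf2* ratio without control 2 (0.060) or *Dnmt1* KO 2 (0.087), where over the 4 fits it ran from -1.17 to 0.087. Of these values, none had been called. The causes were not tested. Same-numbered libraries did not deviate together (correlation -0.085 over all tested genes and 0.016 over genes with a mean of at least 100). This compares a single difference between libraries per genotype, so it cannot show whether same-numbered libraries shared a day, litter or batch. With the replicate block, 2957 genes and 3 PRC2 genes were called, and each paralog ratio kept its value, with exact p of 0.5 or 1. When a library is left out, limma assumes that the single library left varies like the others. No scaling moved the median of all genes by over 0.1 on the log2 scale. Read numbers limited *Phf19* and the *Hox* genes most.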
